A study of Mus musculus with 6 samples.

Results

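Trac and Traj11 are the constant region and a joining segment of the mouse T-cell receptor alpha locus. They are the 2 rows, of 24973 probe sets on the array, that carry these symbols in the platform table. The pair was chosen by its measured levels, since earlier results of these data showed both far higher on the ventral than on the dorsal side of the aorta. The difference between the tissues is therefore described below for Trac and Traj11 and was not tested.

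The T-cell receptor alpha chain is assembled in developing thymocytes. The RAG recombinase joins a variable (V) segment to a joining (J) segment, and the transcript is then spliced to the constant region. The chain reaches the cell surface as a partner of the beta chain, in a complex with the CD3 chains. The delta chain segments lie inside the same locus. Transcripts of the unrearranged locus that are spliced to the constant region without a V segment also occur, and are known from thymocytes before rearrangement.

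The tissue was taken from C57Bl/6 embryos at E11.5, a stage at which blood stem cells emerge from the wall of the aorta. Dorsal tissue (3 arrays) lay between the notochord and the upper wall of the aorta, and ventral tissue (3 arrays) lay beneath the vessel. Both were laser-microdissected from cryosections of unfixed embryos, with no treatment or genotype named in the labels, and the labels do not say whether an array pools embryos. Levels are log2 values after RMA, the method by which the authors corrected background, normalized between arrays and summarised probes, and 3 arrays a tissue limit the precision of every value.

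The tissues were set against lists of position markers. The lists were chosen with earlier results of these data known, so their counts are a description and no independent check of position. In the whole-table comparison (limma, adjusted p under 0.05), 37 of 12028 genes tested (0.308%) were higher in ventral tissue and 25 (0.208%) in dorsal tissue, 62 (0.515%) in all. Of 22 splanchnic mesenchyme genes tested, 7 were among the ventral genes, Tcf21 and Gata6 included, and of 9 sclerotome genes 2 were among the dorsal genes, Pax1 and Col2a1. Not all followed their list, as Foxf1, a splanchnic factor, had a log2 difference of −1.71 and the sclerotome genes Foxc2 and Meox1 had 0.22 and 0.05, none of which passed. The array labelled dorsal 3 stood apart, with 27 probe sets at least 2 (log2) above each of the other 5 arrays (0.108% of probe sets). Among them were the forebrain and neural factors Emx2, Otx2, Pax6 and Tbr1, named after their values were seen. On the array labelled ventral 1 there were 21 such probe sets (0.0841%), and 8 of them were J segments of the alpha locus, which are described below. The other 4 arrays had 0.020% (ventral 2), 0.032% (dorsal 2) and 0.036% (dorsal 1 and ventral 3).

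Trac was at 3.80, 3.66 and 3.28 on dorsal arrays 1, 2 and 3, and at 11.17, 9.47 and 8.78 on ventral arrays 1, 2 and 3. Every ventral array was above every dorsal array, with a gap of 4.98 (log2) between the closest arrays of the tissues. The mean level was 9.81 ± 1.23 (SD, n = 3) in ventral and 3.58 ± 0.27 (SD, n = 3) in dorsal tissue, a log2 difference of 6.23, or 75.1-fold. The same-numbered pairs differed by 7.37, 5.82 and 5.51 (log2), which is 165-fold, 56.3-fold and 45.4-fold. Because the tissue was profiled in bulk, a larger number of transcribing cells and more RNA per cell cannot be told apart.

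Traj11 was at 4.58, 3.36 and 3.17 on dorsal arrays 1, 2 and 3, and at 11.10, 9.48 and 9.23 on ventral arrays 1, 2 and 3. The tissues did not overlap here either, with a gap of 4.66 (log2). The mean was 9.94 ± 1.01 (SD, n = 3) in ventral and 3.70 ± 0.76 (SD, n = 3) in dorsal tissue, a log2 difference of 6.24, or 75.3-fold. The pairs differed by 6.52, 6.12 and 6.06 (log2), so that the spread over pairs was smaller for Traj11 than for Trac. That smaller spread rests in part on the level of 4.58 on dorsal 1, and pairing by number is not established. Without replicate 3, and so without the array dorsal 3, the log2 difference was 6.59 for Trac and 6.32 for Traj11.

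**Figure D1:**
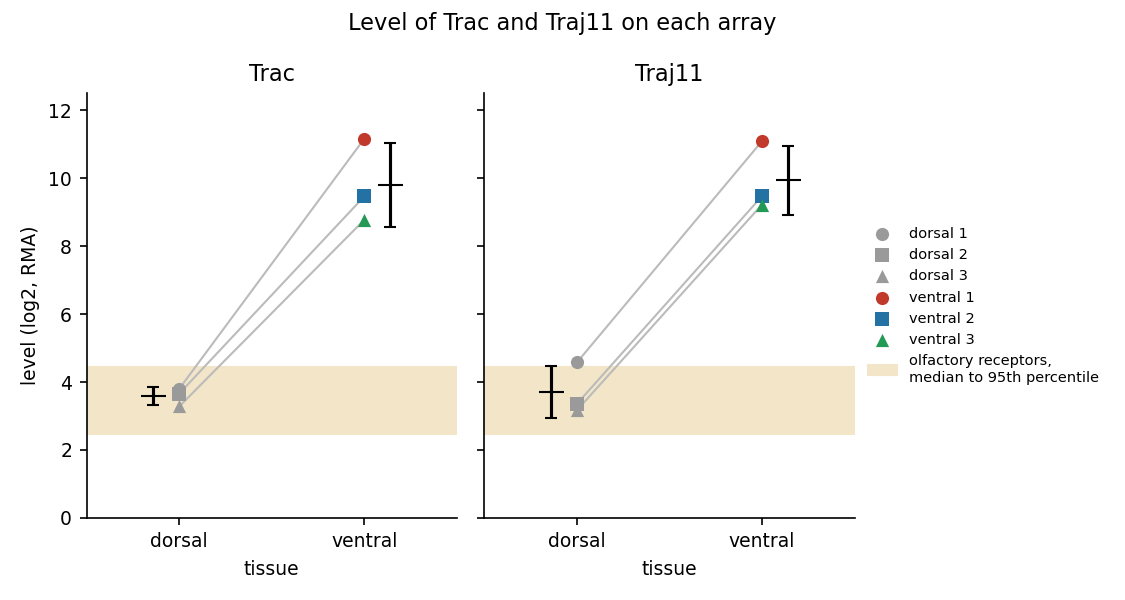
Level (log2, RMA) of Trac and Traj11 on each of the 6 arrays, with lines joining arrays of the same replicate number and bars giving mean ± SD (n = 3). The shaded band runs from the median to the 95th percentile of 1091 olfactory receptor probe sets. All ventral points lie above the band, and all dorsal points lie in it except Traj11 on dorsal 1, which lies just above it at 4.58.

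Both genes are among the 37 called higher in ventral tissue (0.308% of genes tested), from which nothing is read, as the contrast chose them. Their log2 differences ranked first (Traj11) and second (Trac) of all 24973 probe sets. Tcf21 was the third, at 4.70. Both passed the brightness filter, a mean of 4.52 over the 6 arrays, only through their ventral level.

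Dorsal levels were compared with olfactory receptor genes, which are expressed chiefly in olfactory neurons and served here as a guide to the background of the array. Their median was 2.47 to 2.69 on the 6 arrays, and their 95th percentile 4.24 to 4.43. Dorsal Trac was above 81.1% to 90.1% of these probe sets and below their 95th percentile on every dorsal array. Traj11 was above 79.0% of them on dorsal 3, 79.6% on dorsal 2 and 96.2% on dorsal 1. On dorsal 1 Traj11 (4.58) therefore exceeded the 95th percentile of that array (4.38), while on the other dorsal arrays it did not. Folds against a level this close to background give no exact ratio of transcript.

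Within ventral tissue, Trac ranked 210th and Traj11 179th by mean level among the 24973 probe sets, above 99.2% and 99.3% of them. Brightness depends on the probes as well as on the transcript, so this rank describes the probe sets and does not order transcripts by abundance. The rank moved with the array. Trac ranked 33rd on ventral 1, 313th on ventral 2 and 728th on ventral 3, and Traj11 ranked 37th, 303rd and 446th. In dorsal tissue 30.3% of probe sets had a lower mean than Trac and 33.0% a lower mean than Traj11.

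Ventral arrays differed from each other more for this pair than for most genes. The ventral levels spanned 2.38 (log2) for Trac and 1.86 for Traj11, with ventral 1 highest for both. The ventral SD of Trac was exceeded by 101 of the 12028 genes tested and that of Traj11 by 178, against a median SD of 0.233. Among the other genes called higher in ventral tissue the ventral SD ran from 0.04 (Adamts9) to 1.21 (Gm12394), with Tcf21 at 0.98. The SD of Trac (1.23) was above all of these, and that of Traj11 (1.01) above all but Gm12394. A wide spread is not particular to the pair, but the pair lies at the upper end among the called genes. Without replicate 1, which leaves out ventral 1, the log2 difference between the tissues was 5.66 for Trac and 6.09 for Traj11.

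No other segment of the alpha and delta locus passed the test between the tissues. The shares over all genes tested were 0.515% passing and 10.7% with an unadjusted p under 0.05, so 0 among few genes is no result about them. Of 108 other probe sets for V, D and J segments of the locus, 13 were bright enough to be tested. Of these 0 passed (limma), with 1 at an unadjusted p under 0.05. That segment was Traj6, with levels of 5.72, 5.74 and 5.53 on dorsal and 5.05, 5.53 and 4.46 on ventral arrays (log2 difference −0.65 ± 0.22 (SE), adjusted p = 0.352 in limma). The median difference over the 108 was 0.08, against −0.01 over all genes tested, and 66 of the 108 were positive. The brightest in ventral tissue were Trav13-2 (ventral mean 6.79, log2 difference −0.04), Trav8d-1 (5.95 and −0.07) and Trdv2-2 (5.82 and −0.03). Their dorsal and ventral arrays overlapped. Without the brightness filter, where 0.0416% of all genes passed, all 108 were tested and 0 passed (limma), with 4 at an unadjusted p under 0.05, the J segments Traj5, Traj6, Traj41 and Traj49. The constant region of the delta chain was not analysed here.

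The J segments, read in RefSeq gene order, lie in a row ahead of the constant region. Besides Traj11, 56 of them were measured, 48 upstream of Traj11 and 8 between Traj11 and Trac. These 8, namely Traj9, Traj8, Traj7, Traj6, Traj5, Traj4, Traj3 and Traj2, had log2 differences from −0.65 to 1.29. Traj12, the nearest measured segment upstream, was at 2.84, 3.21 and 2.80 on dorsal and 3.01, 3.79 and 2.43 on ventral arrays. Traj9, the nearest downstream, was at 2.34, 2.54 and 2.41 on dorsal and 2.78, 2.17 and 2.31 on ventral arrays. The tissues overlapped for both neighbours of Traj11, and both were below the olfactory receptor 95th percentile on every array.

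On ventral 1, the array with the highest Trac and Traj11, a scattered group of J segments was also raised. This pattern was noticed in the values, so it is a description without a test. Traj36 was at 6.33 on ventral 1, at 2.13 and 2.19 on ventral 2 and 3, and at 2.21, 2.25 and 2.18 on the dorsal arrays. Traj18 was at 6.82 on ventral 1, at 2.55 and 4.16 on ventral 2 and 3, and at 2.73, 2.99 and 2.49 on the dorsal arrays. Traj3 was at 5.38 on ventral 1, at 2.72 and 2.25 on ventral 2 and 3, and at 2.14, 2.28 and 2.04 on the dorsal arrays. In each case ventral 1 alone was high, except that Traj18 was also above the other arrays on ventral 3. These 3 have the greatest differences between the tissues among the other segments (Traj18, 1.77; Traj36, 1.34; Traj3, 1.29), and those differences rest on ventral 1. Without replicate 1 they were 0.62, −0.06 and 0.32.

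In all, 8 of the 56 J segments (14.3%) were at least 2 (log2) higher on ventral 1 than on each other array, against 0.0841% of all probe sets. The probe sets compared were not matched to the J segments in target length or number of probes. Besides Traj36, Traj18 and Traj3 these were Traj42 (5.38 on ventral 1), Traj38 (5.75), Traj27 (6.06), Traj17 (5.21) and Traj15 (5.12). Their excess over the highest other array ran from 2.34 (Traj17) to 4.08 (Traj36), or 5.06-fold to 16.9-fold. They did not lie side by side: 7 were upstream of Traj11 and 1 downstream, and only Traj17 and Traj18 were neighbours among the measured segments. Traj37, between Traj36 and Traj38, was at 2.29 on ventral 1, and Traj16, between Traj15 and Traj17, was at 3.56, both within the range of the other arrays. Another 4 segments were 1 to 2 higher on ventral 1 (Traj30, Traj31, Traj40 and Traj49), and the median excess of the 48 segments short of 2 was −0.17.

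Other ventral arrays held isolated cases of the same kind. On ventral 3, Traj43 was at 6.40, against 3.52 to 4.38 on the other arrays, and Traj61 at 4.33, against 2.01 to 2.79. On ventral 2, Traj41 was at 5.11, against 3.21 to 3.91 elsewhere. Counting segments at least 1 (log2) above every other array, ventral 1 had 12 of 56, ventral 2 had 1 and ventral 3 had 2, while each dorsal array had 0. Over all probe sets the same count was 0.44% on ventral 1, 0.192% on ventral 2, 0.408% on ventral 3 and 0.184% to 0.529% on the dorsal arrays. The mean level of the 56 segments was 3.62 on ventral 1 and 2.81 to 3.01 on the other 5 arrays.

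**Figure D2:**
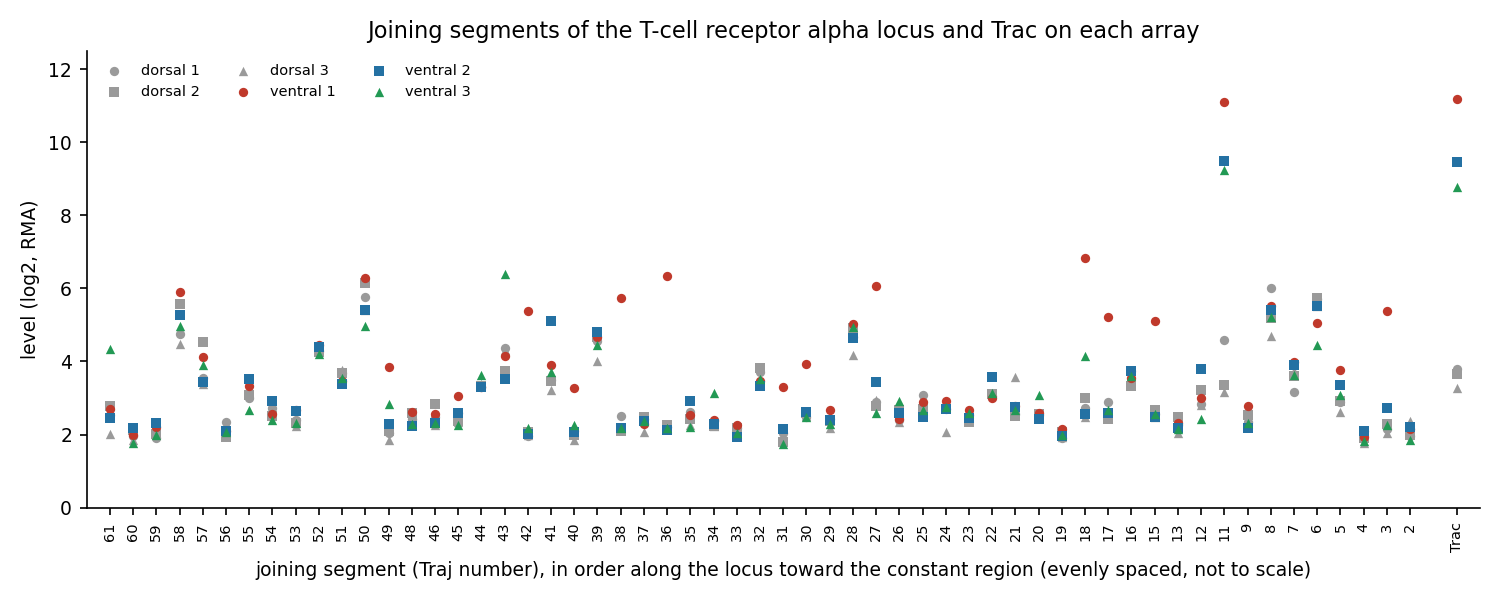
Level (log2, RMA) on each array of the 57 measured J segments, in gene order toward the constant region, and of Trac at the right. Grey points are dorsal arrays and coloured points ventral arrays. Traj11 and Trac are high on all 3 ventral arrays, while Traj42, Traj38, Traj36, Traj27, Traj18, Traj17, Traj15 and Traj3 stand at least 2 above every other array on ventral 1, and Traj37 and Traj16, which lie among them, do not.

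Other segment classes were counted in the same way on ventral 1. Of 45 V segments of the alpha locus, 0 were at least 1 above the other arrays on ventral 1, with a greatest excess of 0.61, and of 7 delta segments also 0. Of 39 segments of the beta locus and 15 of the gamma locus, 0 reached 1. Of 214 immunoglobulin segments, which are rearranged by the same recombinase in B cells, 0 reached 2 and 1 reached 1. Of the 1091 olfactory receptor probe sets 0 reached 2 and 3 reached 1. The other probe sets at least 2 higher on ventral 1 included the mesenchymal zinc-finger factor Osr2, the mesenchymal homeobox factor Meox2 and several microRNA genes. No test of the difference between these classes was made, and they were not matched in target length or number of probes.

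The partner chains of the receptor did not pass the test between the tissues. Trbc1, a constant region of the beta chain, was at 6.14, 6.57 and 5.80 on dorsal and 6.30, 6.71 and 5.69 on ventral arrays. Trbc2, the other one, was at 6.05, 6.05 and 5.98 on dorsal and 6.21, 6.05 and 6.03 on ventral arrays. Both had a log2 difference of 0.07 ± 0.17 (SE; adjusted p = 0.941 and 0.937 in limma), and since the sequences of the 2 genes are nearly identical their probes can share signal. The gamma constant regions Trgc1, Trgc2 and Trgc4 were below the brightness filter, with differences of 0.08, −0.03 and −0.21. Of 54 beta and gamma probe sets, 11 were tested and 0 passed (limma), with 0 at an unadjusted p under 0.05. Among all genes tested 0.515% passed and 10.7% had such an unadjusted p, so 0 of 11 shows nothing particular to these chains. The median difference over all 54 was 0.01.

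The CD3 chains and the pre-TCR alpha chain assemble with receptor chains at the surface. Cd3e, Cd3d and Cd3g were below the brightness filter, while Cd247 and Ptcra passed it. Cd3e was at 3.10, 2.99 and 3.11 on dorsal and 3.37, 3.16 and 2.86 on ventral arrays. Cd3d was at 3.10, 2.89 and 3.40 on dorsal and 3.39, 3.38 and 2.97 on ventral arrays. Cd3g was at 2.83, 2.96 and 2.52 on dorsal and 2.83, 2.96 and 2.85 on ventral arrays. The tissues overlapped for all 3, with log2 differences of 0.06, 0.12 and 0.11. Cd247, the zeta chain (log2 difference −0.03 ± 0.17 (SE)), and Ptcra, the pre-TCR alpha chain (0.04 ± 0.19 (SE)), were tested and did not pass (adjusted p = 0.974 and 0.972 in limma).

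The 3 enzymes of V(D)J recombination were below the brightness filter. Rag1 was at 3.41, 3.60 and 3.22 on dorsal and 3.14, 3.15 and 3.20 on ventral arrays, so that all ventral arrays were below all dorsal arrays, by 0.24 (log2) on average. Rag2 was at 2.72, 2.65 and 2.62 on dorsal and 2.86, 3.02 and 2.44 on ventral arrays, which overlapped. Dntt, the polymerase that adds bases at the junctions, was at 2.81, 2.87 and 2.89 on dorsal and 3.10, 3.37 and 3.01 on ventral arrays, a difference of 0.30. Without the brightness filter Rag1 (adjusted p = 0.775 in limma) and Dntt (0.690) did not pass. All ventral arrays were above all dorsal arrays for 6.24% of probe sets and below them for 5.95%, together 12.2%.

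No T-cell signalling or surface gene that was tested passed. The kinase Zap70 was at 3.36, 3.29 and 3.65 on dorsal and 3.66, 3.26 and 3.27 on ventral arrays. The coreceptors Cd4 (log2 difference 0.03) and Cd8a (−0.04) and the surface glycoprotein Thy1 (−0.13) overlapped between the tissues. Of the 18 genes of this list in the platform table, 15 were below the brightness filter and 3 were tested (limma, 0 passed, 0 at an unadjusted p under 0.05). The shares over all genes tested were 0.515% and 10.7%, so 3 genes show nothing particular to this list. Differences of the 18 genes ran from −0.29 to 0.24. Of 9 T-lineage transcription factors measured, 7 passed the brightness filter. Bcl11b had a log2 difference of −0.56 ± 0.29 (SE; adjusted p = 0.572 in limma) and Gata3 one of 0.16 ± 0.26 (SE; adjusted p = 0.893).

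Taking these 4 lists as 1, 35 of 39 genes were in the platform table, 12 were tested and 0 passed (limma). Passing was rare over all genes tested (0.515%, with 10.7% at an unadjusted p under 0.05), so 0 of 12 is no result about these genes. Of the 12, 1 had an unadjusted p under 0.05, Lef1, at −0.80 ± 0.22 (SE; adjusted p = 0.249 in limma), which was lower on all ventral than on all dorsal arrays, as were 7.88% of genes tested. The median difference of the 35 was −0.01, the same as over all genes tested, and 16 were positive. Their mean level was 4.20 to 4.21 on the dorsal arrays and 4.20, 4.24 and 4.06 on ventral 1, 2 and 3, so ventral 1 was not high. None of the 35 was at least 1 above the other arrays on ventral 1. Most of these genes lay below the filter, where a small difference could be missed.

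**Figure D3:**
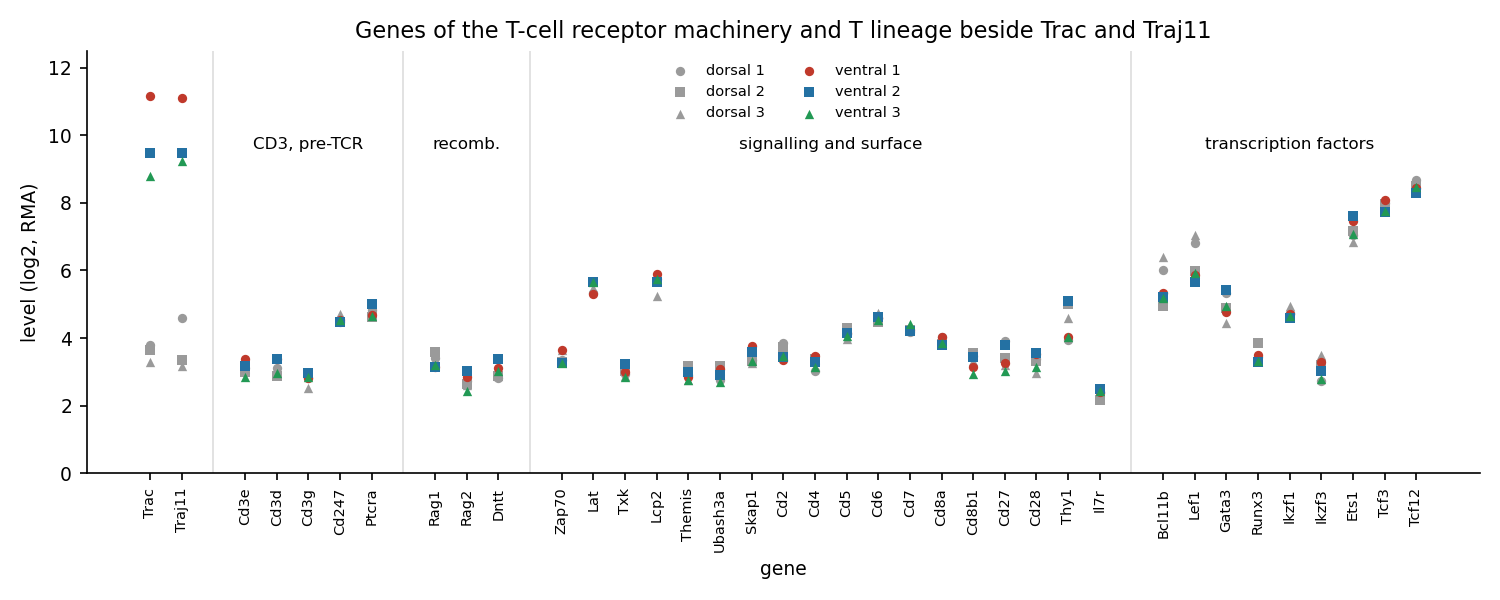
Level (log2, RMA) on each array of Trac and Traj11 and of the 35 measured genes of 4 T-cell lists. Grey points are dorsal and coloured points ventral arrays. Trac and Traj11 are split by tissue with ventral means of 9.81 and 9.94, whereas the tissues overlap for Cd3e, Cd3d and Cd3g, and Cd3e stays between 2.86 and 3.37.

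Markers of other blood cells were read in the same way. Of 11 natural killer and innate lymphoid genes 3 were tested and 0 passed (limma, 0 at an unadjusted p under 0.05). All 6 B-lymphoid genes lay below the filter. The median differences were −0.03 and 0.00. Their mean levels were 3.72 to 3.95 and 3.43 to 3.68 over the 6 arrays. Macrophage genes were present in both tissues (mean level 5.26 to 5.99 in dorsal, 5.79 to 6.26 in ventral), with all 10 differences positive, a median of 0.35 and 0 passing (limma; 2 at an unadjusted p under 0.05). Ptprc, the pan-leukocyte phosphatase CD45, was at 3.61, 3.25 and 3.03 on dorsal and 4.43, 3.81 and 3.36 on ventral arrays, with the tissues overlapping (adjusted p = 0.444 in limma without the filter). It was highest on ventral 1, as were Trac and Traj11, and so was the mean of the macrophage list. Within the macrophage list Cd68, Adgre1 and Mrc1 were highest on ventral 2. In the pan-hematopoietic list, which holds Ptprc, ventral 1 was also the highest ventral array for Spn, Runx1, Flt3 and Laptm5. It was the lowest for Kit, Cd34 and Itga2b, and between the others for Gfi1, Myb and Coro1a. Ventral 1 was the highest ventral array for 34.1% of all genes tested and the lowest for 37.3%. Of 7 pan-hematopoietic, 5 erythroid and 8 endothelial genes tested 0 passed (limma; 3, 3 and 2 at an unadjusted p under 0.05). The median difference was 0.22 over all 11 measured pan-hematopoietic genes, tested or not, −0.67 over the erythroid and 0.55 over the endothelial genes. Over all genes tested 0.515% passed, 10.7% had an unadjusted p under 0.05, 47.7% of differences were positive and the median was −0.01. Whether blood cells contribute to the level of Trac and Traj11 was not tested.

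The genes next to the locus were read in the same fit. Dad1, which lies just beyond Trac and encodes an oligosaccharyltransferase subunit, was at 9.14, 9.34 and 9.19 on dorsal and 9.46, 9.33 and 9.31 on ventral arrays. Its log2 difference was 0.14 ± 0.18 (SE; adjusted p = 0.855 in limma). Abhd4 (0.01 ± 0.22) and Oxa1l (0.24 ± 0.18) follow on that side, and Sall2 (0.00 ± 0.18), Mettl3 (−0.11 ± 0.17) and Tox4 (0.34 ± 0.19) lie beyond the V segments. Of the 20 nearest measured protein-coding genes, 10 a side, 17 were tested and 0 passed (limma), with 1 at an unadjusted p under 0.05, against 0.515% and 10.7% of all genes tested, so that so few genes show nothing particular to this stretch. This was the membrane metalloprotease Mmp14 (0.76 ± 0.20, adjusted p = 0.230), sixth on the constant region side. The median difference of the 20 was 0.02.

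To find the genes whose pattern is most like that of Trac and Traj11, each gene was scaled so that its dorsal mean is 0 and its ventral mean is 1. The distance is the root mean square gap over the 6 arrays from the mean profile of the pair. It was taken for the 189 other genes tested with a log2 difference of at least 1. On this scale the pair stood at 1.20, 0.94 and 0.86 on ventral 1, 2 and 3, and at 0.09, −0.02 and −0.07 on the dorsal arrays. Distances over the 189 genes had a median of 0.361. The arrays number 6 and share their tissue split by construction, so likeness here says mainly how the 3 arrays of each tissue are ordered.

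The closest were the protocadherin Pcdhga7 (distance 0.0681), the cyclic GMP phosphodiesterase Pde5a (0.0731), the complement C1 inhibitor Serping1 (0.0750), Fras1, a matrix protein of epithelial basement membranes (0.0781), and the cadherin Cdh18 (0.0884). Nav3 (0.0899), the mesothelial gene Upk3b (0.107), the matrix protein Ecm1 (0.111), Calml4 (0.123) and the actin nucleator Cobl (0.124) followed. Ecm1 was at 5.67, 5.93 and 5.45 on dorsal and 9.05, 7.97 and 7.43 on ventral arrays. Pde5a was at 6.38, 6.32 and 6.20 on dorsal and 7.90, 7.86 and 7.51 on ventral arrays. The tissues did not overlap for any of the 10, which follows from choosing them by this distance and is no result about them. Among all genes tested, 7.5% had all ventral arrays above all dorsal arrays. The log2 differences of the 10 were 1.18 to 2.47, far below those of the pair. Ventral 1 was the highest ventral array for 8 of the 10, which the distance favours.

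This set of 10 depends on the arrays used. Only 2 of the 10 were among the 10 closest without replicate 1, 3 without replicate 2 and 3 without replicate 3. Of the 10, 6 passed in limma (Pcdhga7, Pde5a, Fras1, Cdh18, Ecm1 and Calml4). Pcdhga7, Pde5a and Calml4 did not pass whichever replicate number was left out, nor did Fras1 without replicate 2 (adjusted p = 0.0557). Without the brightness filter none of the 10 passed in limma, with adjusted p from 0.0644 (Cdh18), and all 10 had an unadjusted p under 0.05 there.

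Tcf21, Gata6, Hlx and Zfpm2, ventral mesenchyme factors that passed the test, were ordered otherwise over the ventral arrays. Tcf21, a factor of visceral mesenchyme, was at 3.25, 5.16 and 3.45 on dorsal and 7.55, 9.44 and 8.97 on ventral arrays. Gata6, a zinc-finger factor of visceral mesoderm, was at 4.48, 4.79 and 5.48 on dorsal and 7.47, 8.27 and 8.58 on ventral arrays. For both, ventral 1 was the lowest ventral array, where Trac and Traj11 were highest. The same held for Hlx (6.86, 7.41 and 7.52 on ventral 1, 2 and 3) and for Zfpm2, a cofactor of GATA proteins (6.60, 6.68 and 7.21). Not every list gene that passed had ventral 1 lowest. Dcn did (8.48, 8.67 and 9.57), while Ntrk3 was lowest on ventral 2 (8.15, 8.04 and 8.77) and Rgs5 on ventral 3 (7.94, 8.91 and 7.75). The distances of Tcf21 (0.265, the 60th of 189), Gata6 (0.247, the 52nd), Hlx (0.221, the 39th) and Zfpm2 (0.256, the 55th) exceeded those of the 10 closest genes. All were below the median of 0.361 over the 189 genes. Iigp1, an interferon-inducible GTPase, was at 8.04, 8.59 and 8.55 on the ventral arrays (distance 0.192), with ventral 1 again lowest. Osr1, a factor on the same mesenchyme list named after its values were seen, had the order of Trac at 9.38, 8.79 and 8.23 on ventral 1, 2 and 3. Its dorsal arrays, at 9.31, 6.71 and 8.27, overlapped with these (log2 difference 0.70 ± 0.42 (SE), adjusted p = 0.640 in limma).

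Of the 22 splanchnic mesenchyme genes tested, 15 had a log2 difference of at least 1, a cut that leaves out Osr1. On ventral 1 the level was lowest of the ventral arrays for 10 of these 15 and highest for 1, the smooth muscle actin gene Acta2. Over all genes tested ventral 1 was lowest for 37.3% and highest for 34.1%, and over the 189 genes for 50.3% and 28.0%. Acta2 was at 7.33, 7.66 and 5.96 on dorsal and 9.85, 8.44 and 7.07 on ventral arrays, so it had the same order as Trac within ventral tissue but overlapped between the tissues. The order of ventral 1, 2 and 3 from high to low, which both Trac and Traj11 had, was found in 18.8% of all genes tested. With 3 arrays, no relation between these genes within ventral tissue can be tested.

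**Figure D4:**
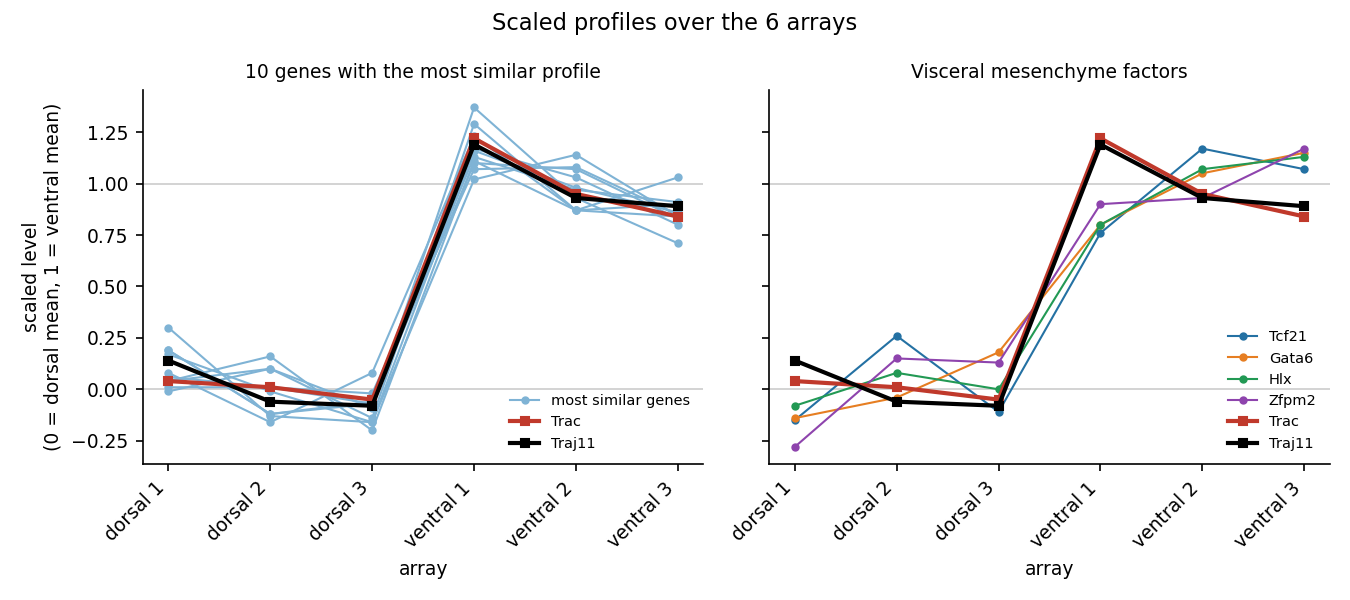
Level of each gene on the 6 arrays, scaled so that its dorsal mean is 0 and its ventral mean is 1. Left, Trac and Traj11 with the 10 genes of the most similar profile; right, with Tcf21, Gata6, Hlx and Zfpm2. Trac and Traj11 stand highest on ventral 1 (1.22 and 1.19), where Tcf21 (0.76) and Gata6 (0.80) stand lowest among the ventral arrays.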

How the data were processed

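The deposited values are log2 expression levels from Affymetrix whole-transcript arrays, 1 per probe set and array. Per the submitters' processing notes, the authors used Affymetrix Expression Console and RMA. Neither a version nor a build is given in the sources used here. RNA in the picogram range was amplified before labelling, per the labels' protocols, which can distort ratios of weak transcripts. Rows are numbered by Entrez gene identifier, and the number of probes per row is not given. The platform table names 24015 of the 24973 rows with 1 symbol and 0 with several, and 958 are unnamed here. List genes without a named row, some of which the naming rule would have printed, were not analysed here.

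Ventral minus dorsal was fitted in R 4.3.3 with limma 3.58.1, with the replicate number as a block, two-sided, with Benjamini-Hochberg adjustment over 12028 genes with a symbol and a mean at or above 4.52, at a threshold of 0.05. The median standard error was 0.196. Standard errors (SE) are those of the moderated fit. The labels say that both tissues came from the same embryos, without saying that a number marks an embryo. After subtracting each tissue's mean, arrays sharing a number had correlations of 0.0992, 0.0763 and 0.226, not all above 0.1, and arrays of unlike number −0.153 to 0.0805. Dorsal 2 and ventral 1 (0.0805) exceeded the pair numbered 2, so neither the labels nor the values establish pairing by number. The block was kept as the fixed design. P-values rest on the spread left in these samples after the block, moderated over genes, and so depend on this grouping by number. The procedure was tested on simulated data.

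Gene order came from RefSeq (GRCm38.p6), used for names and neighbours only, and no position is printed because the build of the array's annotation is not named. Trac, Traj11 and all lists were chosen with earlier results of these data known. Besides the pair, the genes named were the 3 brightest and 3 most different other segments of the locus, the receptor constant regions, all CD3 and recombination genes, fixed T-cell and mesenchyme markers and list genes that passed, the 3 nearest neighbours a side, and the 10 most similar genes. Counts of J segments on single arrays, and the segments named there, were chosen after the values were seen. Alternatives were no replicate block, no or a stricter brightness filter, a variance trend, other scalings and leaving out each replicate number.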

Additional observations from a re-analysis of the deposited data

How the results depend on the processing

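The log2 differences of Trac and Traj11 kept their direction under every alternative run for them, at 5.66 to 6.59 and 6.09 to 6.32 without 1 replicate number, and at 6.21 to 6.25 and 6.22 to 6.26 under other scalings. The counts of 0 for other alpha and delta segments, T-cell genes and locus neighbours were 0 under all 9 alternatives. Over all genes 0.515% passed in the main fit and 0.0416% without the brightness filter. With so few genes in these sets, unchanged counts of 0 therefore show little. Genes higher in ventral tissue numbered 8 without the brightness filter, 56 with a variance trend and 22 to 54 without 1 replicate number, against 37. Genes higher in dorsal tissue numbered 2 without the filter, 15 with the stricter filter, 38 with the trend and 18 to 26 without 1 replicate number, against 25. The causes were not tested. Of the 10 most similar genes, 2 to 3 were shared without 1 replicate number, and 8 to 10 under the other alternatives run. In the fit that omits the replicate block, 36 genes were higher in ventral and 23 in dorsal tissue, and 45 of the 62 calls were shared. Among the 33 single genes followed, no direction that passed the test reversed. Without the block Rgs5 lost its call (adjusted p = 0.0732 in limma), while Nav3 (0.0408) and Cobl (0.0336) gained one. Signal near background limits statements on weak genes, since 95 of 108 other segments and 23 of 35 T-cell genes lay below the filter.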
